A study of Homo sapiens with 36 samples.

Results

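The change of mRNA that followed activation of MEIS1 was measured in human neural stem cells (hNSC) by comparing 6 libraries of MEIS1-OE with 6 libraries of ctrl-OE. The genes compared were those with at least 10 counts summed over these 12 libraries, which kept 18401 of the 28516 gene symbols in the table. Over all 36 libraries of the series, 19689 genes reached that sum. OE stands for overexpression from the cell's own gene copies. It was driven by CRISPR activation, in which a guide RNA brings a nuclease-dead Cas9 fused to the activator VP64, together with MS2-bound p65 and HSF1 activation domains, to the start of the target gene. In MEIS1-OE the guide was directed at MEIS1, while ctrl-OE received the same 3-component lentiviral system with a guide that has no target in the genome. Both groups therefore received the activator components, whose levels were not compared here, and all cells were harvested 48 h after infection. The cells are a commercial hNSC product grown as an adherent culture of proliferating progenitors, and only 1 guide was used for MEIS1. The labels number the libraries 1 to 6 within a group and do not say whether these were separate cultures, so that P values measure the spread between these libraries, which may be technical. MEIS2-OE, MEIS1-KO and ctrl-KO, with 6 libraries each, are used below only where they show how the response to MEIS1 activation differs. KO is a knockout made with active Cas9.

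MEIS1 is a homeobox transcription factor of the TALE class, whose members bind DNA together with PBX and HOX proteins. It is known for its part in blood stem cells, in the limb and in the developing eye and forebrain, and common variants at its locus are the strongest known genetic risk factor for restless legs syndrome (RLS). MEIS2 is its close paralog and is expressed in the developing striatum, among other tissues.

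The libraries of MEIS1-OE held between 18739110 and 21667053 counts, and those of ctrl-OE between 20164616 and 22940493. Levels are given as CPM, counts divided by the TMM-normalized library size and scaled to the same total in every library, which corrects for depth and composition. The progenitor markers NES and SOX2 were expressed in every library, with 862 to 1180 CPM and 86.4 to 138 CPM in MEIS1-OE. NES encodes the intermediate filament nestin, and SOX2 is a transcription factor of neural progenitors. PAX6, a regulator of forebrain progenitors, stood at 16.2 to 23.5 CPM in MEIS1-OE. The astrocyte filament gene GFAP, the young-neuron gene DCX and the pluripotency gene POU5F1 each had a highest value under 1 CPM in both groups. In bulk RNA, fewer cells of a type and less RNA per cell cannot be told apart.

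Library 3 of MEIS1-OE and library 6 of ctrl-OE stood apart from their groups. The root mean square distance in log2 CPM to the mean of the rest of the group was 0.373 and 0.312 for these libraries, against 0.154 to 0.218 for the other 10. They differed in GC-rich transcripts. Among the tenth of genes with the highest GC content, the median deviation from the mean of all 12 libraries was -0.525 in library 3 of MEIS1-OE and 0.426 in library 6 of ctrl-OE on the log2 scale. For the same genes, the other MEIS1-OE libraries lay at 0.0428 to 0.243. The other ctrl-OE libraries lay at -0.326 (library 4) to 0.0504, with a slight overlap. A difference in GC-rich transcripts between the groups therefore remained when both libraries were left out. Counts of called genes are given with and without both libraries. The part of this difference in the counts without them was not tested.

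MEIS1 mRNA was raised in all 6 activated libraries. The gene lies on the plus strand of chromosome 2 at 66660584 to 66801001 (GRCh37). Its level was 287 CPM at the lowest, 315 CPM at the median and 323 CPM at the highest in MEIS1-OE, and 15.7, 18 and 18.8 CPM in ctrl-OE. No library of one group came near the range of the other. The log2(fold change) was 4.12 ± 0.05 (SE, n = 6 per group, adjusted P = 3.04e-18), a 17.3-fold rise. MEIS2 mRNA ranged from 20.8 to 26.1 CPM in MEIS1-OE, and the log2(fold change) was -0.03 ± 0.07 (adjusted P = 0.891). MEIS1 was the 1 raised gene among 18 tested TALE homeobox genes, and none was lowered.

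The other tested genes with a position around MEIS1 were few. MEIS1-AS3, a non-coding RNA annotated on the minus strand at 66653867 to 66660602 on chromosome 2, gave 91 counts in all MEIS1-OE libraries together and 3 counts in all ctrl-OE libraries. The ratio of its levels was 32.6, with a 95% counting interval of 10.8 to 161 (exact interval on the split of counts, which covers counting error only). Its annotated 5′ end overlaps that of MEIS1, and the strand setting of the counting is not given in the sources used here, so reads of the pair may not be told apart. ETAA1, a replication stress gene that lies within 1 Mb on the far side of MEIS1, was at 28.2 to 40.4 CPM in MEIS1-OE, and its log2(fold change) was -0.05 ± 0.08 (adjusted P = 0.844).

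The 300 bases before the start of the canonical MEIS1 transcript are shown because MEIS1 is the gene to which activation was directed, and those of FAT2, the raised gene with the next smallest P, because they hold the letters TGACAG, the core that MEIS proteins are known to bind. Both are read 5′ to 3′ in the direction of transcription from GRCh37, at chr2:66661957-66662256 on the plus strand and chr5:150970893-150971192 on the minus strand. Capitals mark TGACAG on either strand.
MEIS1: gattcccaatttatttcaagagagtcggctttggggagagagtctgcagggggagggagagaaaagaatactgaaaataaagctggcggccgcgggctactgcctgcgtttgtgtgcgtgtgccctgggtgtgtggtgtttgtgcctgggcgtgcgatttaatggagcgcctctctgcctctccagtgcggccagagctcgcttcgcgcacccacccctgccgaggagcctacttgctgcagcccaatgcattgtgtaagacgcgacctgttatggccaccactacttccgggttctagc
FAT2: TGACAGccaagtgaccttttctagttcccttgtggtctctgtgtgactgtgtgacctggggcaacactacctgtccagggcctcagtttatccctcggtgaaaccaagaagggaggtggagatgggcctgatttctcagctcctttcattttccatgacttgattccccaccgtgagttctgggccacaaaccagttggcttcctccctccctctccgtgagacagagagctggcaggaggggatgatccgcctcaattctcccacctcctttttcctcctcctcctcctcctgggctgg

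The motif did not set the raised genes apart in these windows. It was found in 13.8% of the 370 raised genes with a window, in 10.6% of 85 lowered genes and in 12.5% of all 15763 tested genes with a window. Of 14 windows among the 15 raised genes with the smallest P, 1 held it. A match is a run of letters only, and these windows say nothing of binding farther away.

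Activation of MEIS1 raised many more genes than it lowered. With calls set at an adjusted P below 0.05 and a log2(fold change) beyond 0.58 in either direction, 399 genes were raised (2.17% of those tested) and 91 were lowered (0.495%). By adjusted P alone, 1263 genes (6.86%) passed, 844 of them higher and 419 lower in MEIS1-OE. Without library 3 of MEIS1-OE and library 6 of ctrl-OE, 591 genes were raised and 173 lowered. These held 391 of the 399 and 82 of the 91. The remaining libraries still differed between the groups in GC-rich transcripts, as given above. The median log2(fold change) over all tested genes was -0.007. All 6 MEIS1-OE libraries lay above all 6 ctrl-OE libraries for 296 of the 399 raised genes, against 3.38% of tested genes, and all lay below for 64 of the 91 lowered genes, against 1.29% of tested genes.

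The changes also differed in size. The raised genes had a median log2(fold change) of 1.04, with 211 above 1 and 80 above 2. The lowered genes had a median of -0.91, with 41 below -1 and 12 below -2. Raised genes came from every level of expression in ctrl-OE. Of the 399, 48 were under 0.1 CPM, 115 between 0.1 and 1 CPM, 142 between 1 and 10 CPM, 78 between 10 and 100 CPM and 16 at 100 CPM or more. Of all tested genes in these classes, 3.18%, 3.42%, 3.98%, 1.02% and 0.686% were raised, so the share was larger below 10 CPM than above. The classes were set by ctrl-OE, 1 side of the comparison. Some genes of the lowest class passed the count filter only through MEIS1-OE, so these shares are a description. Of the 91 lowered genes, 0 lay under 0.1 CPM, where a fall could hardly be called. Between 0.1 and 1 CPM there were 29, between 1 and 10 CPM 53, between 10 and 100 CPM 8 and above that 1. The lowered genes made up 0.863%, 1.49%, 0.105% and 0.0429% of the tested genes in the last 4 of these classes. Both sets are shown in the plot of level against change.

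**Figure D1:**
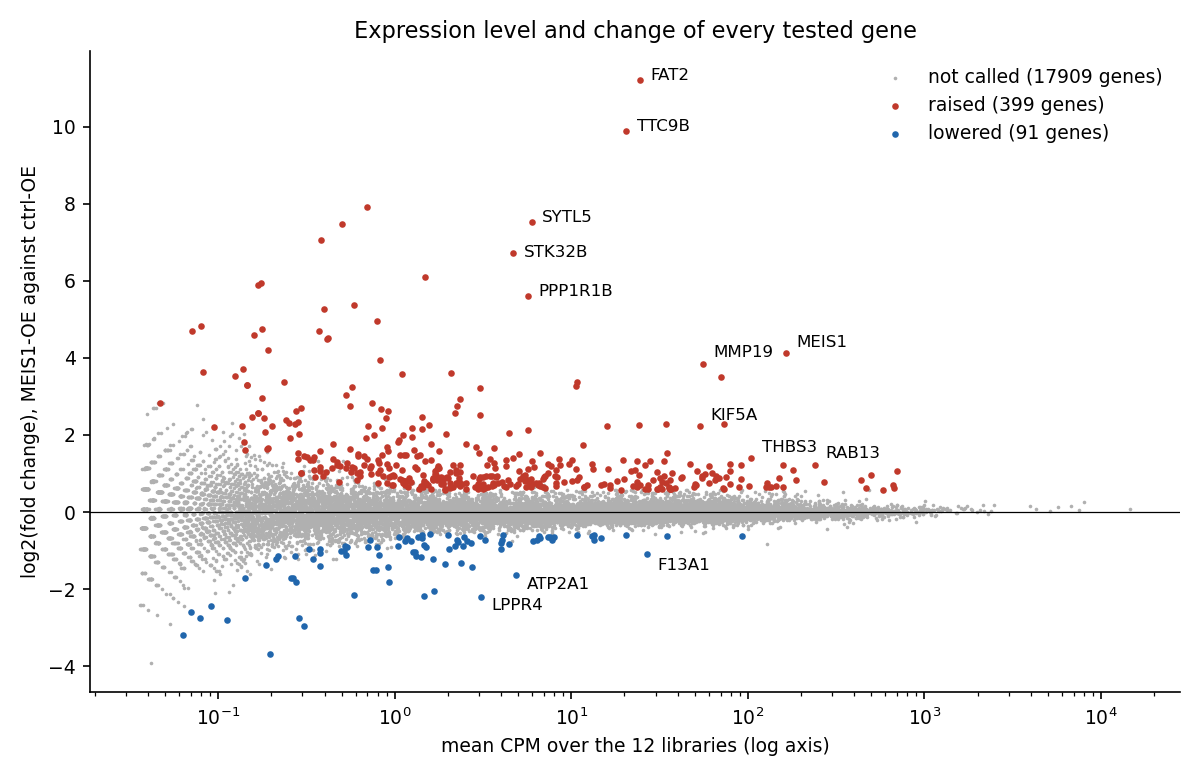
Each point is 1 tested gene, with its mean CPM over the 12 libraries on a log axis and its log2(fold change) of MEIS1-OE against ctrl-OE. The 399 raised genes (red) spread from low to high levels, most of them under 10 CPM in ctrl-OE, and reach 11.22 (FAT2). The 91 lowered genes (blue) also lie mostly under 10 CPM in ctrl-OE. Fitted changes of genes near 0 CPM in ctrl-OE depend on the prior count.

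FAT2 was nearly silent in control cells and became a clearly expressed gene. FAT2 encodes an atypical cadherin of the FAT family, and it lies on chromosome 5. Its level in MEIS1-OE was 41.9, 48.2 and 59 CPM (lowest, median and highest), and 2 counts were found in all ctrl-OE libraries together against 6198 in MEIS1-OE. The ratio of levels was 3330, with a counting interval of 922 to 27500 (adjusted P = 1.91e-15). TTC9B, which encodes a protein with tetratricopeptide repeats, ranged from 27.2 to 48.5 CPM in MEIS1-OE and gave 5177 counts against 5. For this gene the ratio was 1110, with a counting interval of 477 to 3430 (adjusted P = 1.66e-13).

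STK32B, SYTL5 and PPP1R1B behaved alike at lower levels. STK32B, a serine/threonine kinase gene, rose from at most 0.14 CPM to between 8.18 and 12.5 CPM, with a log2(fold change) of 6.73 ± 0.21 (adjusted P = 9.38e-13). SYTL5, whose product is a synaptotagmin-like protein of vesicle traffic, rose from a mean of 0.0591 CPM, with 0 to 3 counts per library, to between 8.78 and 16.4 CPM (7.52 ± 0.28, adjusted P = 1.25e-11). PPP1R1B encodes DARPP-32, the protein phosphatase inhibitor that integrates dopamine signals in striatal neurons. Its level was 0 to 0.422 CPM in ctrl-OE and 8.83, 10.6 and 14.2 CPM in MEIS1-OE, a log2(fold change) of 5.62 ± 0.25 (adjusted P = 1.59e-10). In each of these genes the lowest activated library exceeded the highest control library many times over. CRHR2, a receptor for the stress peptides of the corticotropin-releasing hormone family, rose from at most 0.134 CPM to between 2.37 and 3.41 CPM (6.11 ± 0.33, adjusted P = 1.93e-09). LRRC71 and ST6GALNAC1, a sialyltransferase gene, completed the 10 raised genes of largest change among those with a mean of 1 CPM or more, each with a log2(fold change) of 3.6.

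In all, 44 raised genes had at most 3 counts in every ctrl-OE library, and 11 of them reached a mean of 1 CPM or more in MEIS1-OE. How many tested genes had so few control counts is not given here, so the 44 cannot be read as a share. The class was set by ctrl-OE, at levels where a fall could hardly be called. Some of its genes, such as KLK8 and MPZL2, passed the count filter only through MEIS1-OE, so the count is a description. KLK8, a serine protease of the kallikrein family, had no count in ctrl-OE and 176 counts in MEIS1-OE, at least 63.1-fold higher when 3 counts are set for the control group as a whole. MPZL2, which encodes an epithelial adhesion molecule of the immunoglobulin superfamily, also had no count in ctrl-OE and 128 in MEIS1-OE, at least 45.9-fold higher. KLK8 and the GOLGA6 genes were chosen after their values were seen. GOLGA6A, GOLGA6B, GOLGA6C and GOLGA6D were raised together in this class, at means of 0.37 to 0.805 CPM in MEIS1-OE. These are near-identical copies of a golgin gene on chromosome 15, so their reads cannot be assigned with certainty and they may stand for fewer than 4 transcripts.

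Genes with a firm level in control cells rose as well, by smaller factors. KIF5A, the neuronal heavy chain of the motor kinesin-1, was at 17.4, 18.9 and 19.6 CPM in ctrl-OE and at 82.5, 88.3 and 95.3 CPM in MEIS1-OE. The ranges were far apart, and the log2(fold change) was 2.24 ± 0.06 (adjusted P = 5.19e-14). MMP19, a secreted matrix metalloproteinase, went from 6.05, 6.83 and 8.81 CPM to 86.6, 106 and 119 CPM (3.85 ± 0.1, adjusted P = 1.59e-13). PIANP, a membrane protein gene expressed in the nervous system, rose from 21.5 to 27.4 CPM to 101 to 134 CPM (2.27 ± 0.08, adjusted P = 3.08e-12).

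The 15 raised genes of smallest P also held INPP5J, STAC2, RAB13, ZNF385C, BC033961 and THBS3, the last described with its list. INPP5J, a phosphatase of inositol phospholipids, rose from 10.7 to 12.4 CPM to 42.4 to 64.4 CPM (2.28 ± 0.09, adjusted P = 3.99e-11). STAC2, whose product binds L-type calcium channels, rose by 3.37 ± 0.14 (adjusted P = 4.48e-11). Its lowest MEIS1-OE value of 13.1 CPM was that of library 3, and the highest ctrl-OE value was 2.22 CPM. RAB13, a small GTPase of membrane traffic to cell junctions, was the most abundant of the 15 genes, at 301, 335 and 372 CPM in MEIS1-OE against 137, 141 and 154 CPM in ctrl-OE (1.23 ± 0.05, adjusted P = 4.92e-11). The zinc finger gene ZNF385C rose by 1.35 ± 0.06 (adjusted P = 2.88e-10), and the unnamed transcript BC033961 rose by 2.26 ± 0.08 (adjusted P = 2.3e-12).

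**Figure D2:**
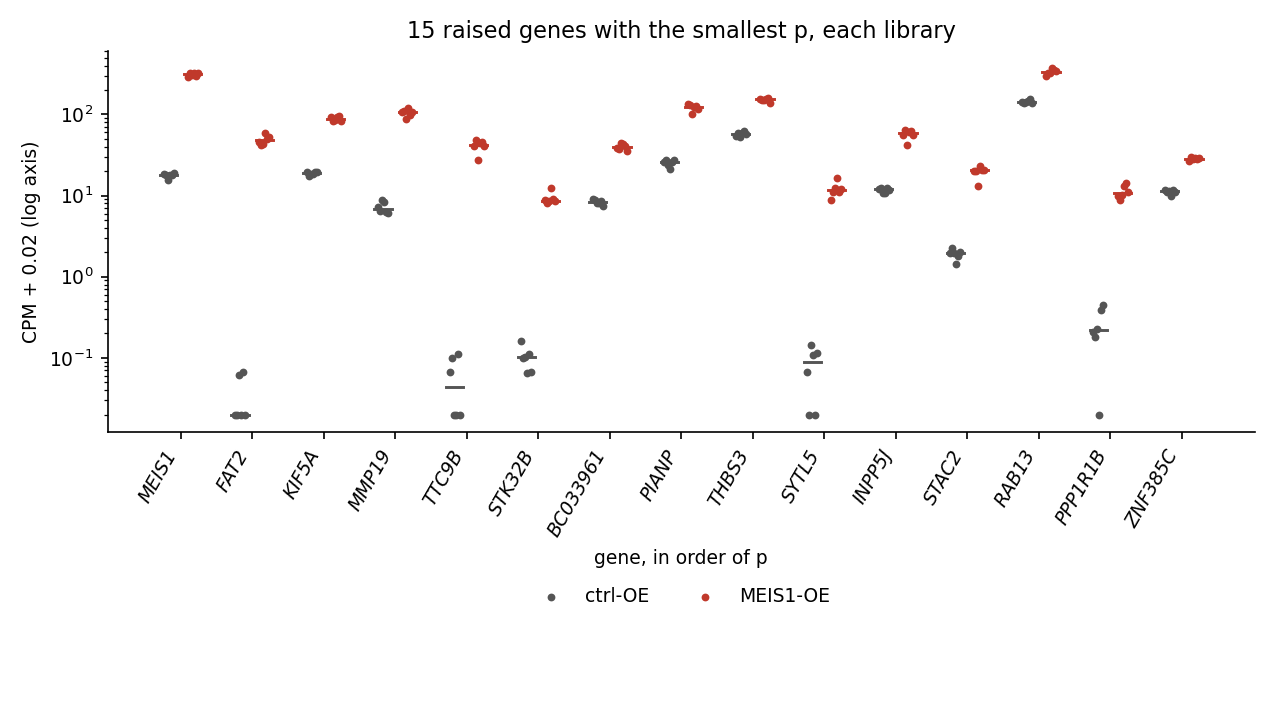
CPM plus 0.02 on a log axis for the 15 raised genes with the smallest P, in order of P. Each point is 1 library (6 of ctrl-OE in grey, 6 of MEIS1-OE in red) and each short line is a median; the groups do not overlap for any of these genes, and FAT2, TTC9B, STK32B, SYTL5 and PPP1R1B lie at or below 0.422 CPM in every ctrl-OE library.

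Lowered genes fell by smaller amounts. F13A1, the A subunit of coagulation factor XIII, was at 33.6, 36.6 and 38.4 CPM in ctrl-OE and at 15.3, 17.2 and 19.5 CPM in MEIS1-OE. Its log2(fold change) was -1.08 ± 0.07 (adjusted P = 7.27e-09), the smallest P among lowered genes. ATP2A1, a calcium pump of the muscle sarcoplasmic reticulum, fell from 6.84, 7 and 8.56 CPM to 2.03, 2.37 and 2.84 CPM (-1.63 ± 0.11, adjusted P = 2.78e-08). LPPR4, a membrane protein of the lipid phosphatase-related family found at synapses, fell from at least 4.41 CPM to at most 1.49 CPM (-2.22 ± 0.16, adjusted P = 7.08e-08).

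CCNA1, CDKN2C and CDC25C were also among the 15 lowered genes of smallest P. CCNA1, a cyclin best known from the germ line, fell from 0.842 to 1.12 CPM to 0.151 to 0.363 CPM (-2.15 ± 0.22, adjusted P = 5.55e-06). CDKN2C, an inhibitor of the kinases CDK4 and CDK6, fell from 4.79, 5.26 and 5.86 CPM to 2.14, 2.77 and 3.47 CPM (-0.96 ± 0.11, adjusted P = 2.59e-05). CDC25C, the phosphatase that starts mitosis, fell by 0.62 on the log2 scale, with an SE of 0.07 and an adjusted P of 2.59e-05. No member of the G1/S or G2/M lists was called, as described further below, but neither list holds CCNA1, CDKN2C or CDC25C.

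The other lowered genes chosen by P were DCLK1, SPN, SCUBE2, TMEM130, MCOLN3, KLHL10, LONRF2, GCH1 and ALOX15, with log2(fold changes) from -2.19 (KLHL10) to -0.61 (DCLK1). DCLK1 is a doublecortin-like kinase of growing neurons, and its call was lost without library 4 of MEIS1-OE, where the value was -0.572. GCH1, the first enzyme of tetrahydrobiopterin synthesis and so of the cofactor for making dopamine, fell from 12.8, 15.9 and 18.2 CPM to 9.82, 10.3 and 10.8 CPM (-0.62 ± 0.08, adjusted P = 9.77e-05). DSP, which encodes the desmosome protein desmoplakin, fell from 2.95, 3.79 and 5.03 CPM to 0.863, 1.54 and 2.07 CPM (-1.42 ± 0.2, adjusted P = 0.000183). EML6, VWA5B2, MFSD6 and BMP8A were also among the 10 lowered genes of largest change with a mean of 1 CPM or more, at -1.34 (VWA5B2) to -1.14 (MFSD6).

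**Figure D3:**
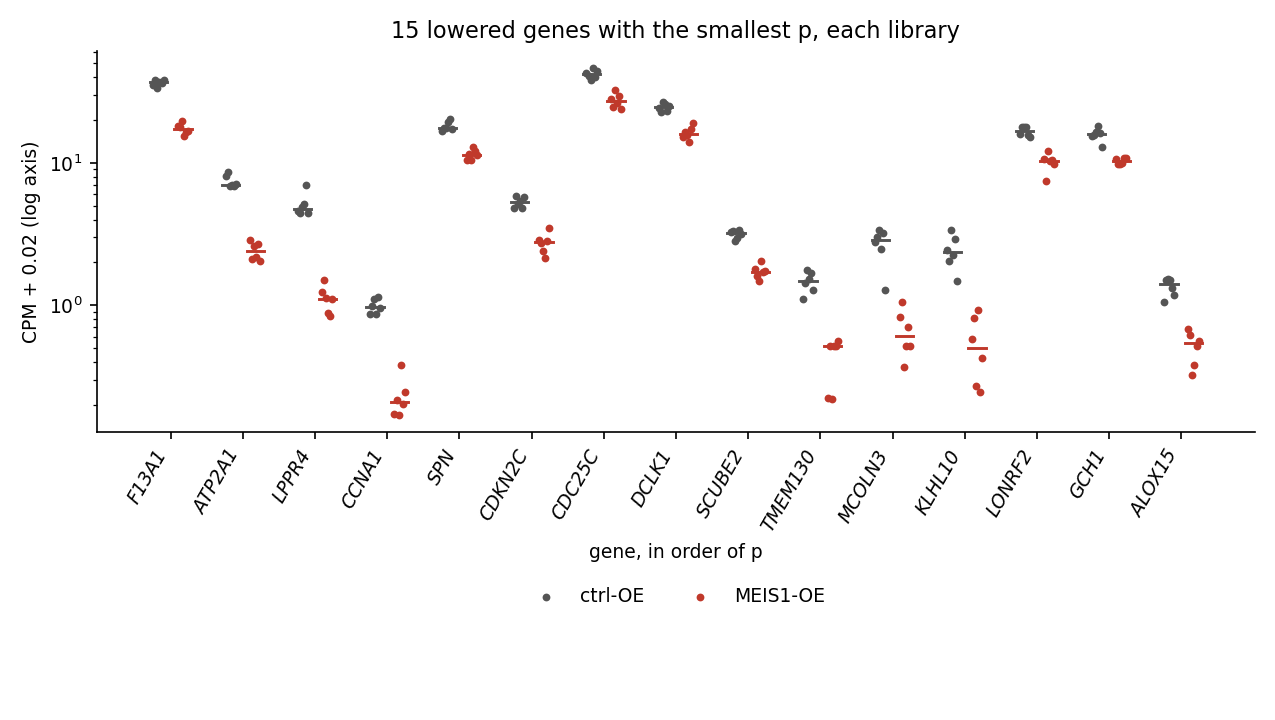
CPM plus 0.02 on a log axis for the 15 lowered genes with the smallest P, in order of P, with 1 point for each library (ctrl-OE in grey, MEIS1-OE in red) and a short line at each median. No group pair overlaps, and the medians in ctrl-OE are below 20 CPM except for F13A1, DCLK1 and CDC25C.

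Genes were also described by 53 lists of pathways, families and cell type markers. Of 1391 tested members of any list, 73 were raised and 11 lowered. At least 1 member was called in 39 lists. The share of a list is to be read against the 2.17% and 0.495% of all tested genes, and the lists differ in size and level of expression.

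Among 53 tested synaptic adhesion and organiser genes, 6 were raised and 1 was lowered, with a median log2(fold change) of 0.067. THBS3, a thrombospondin, went from 52.5, 57.8 and 61.6 CPM to 140, 153 and 159 CPM (1.41 ± 0.05, adjusted P = 4.57e-12). The related genes THBS2 and COMP rose by 1.49 ± 0.19 (adjusted P = 5.71e-05) and 1.53 ± 0.22 (adjusted P = 0.000185). NRXN2, a presynaptic neurexin, rose from 12.9 to 20 CPM to 23.8 to 41.8 CPM (1.22 ± 0.13, adjusted P = 5.07e-06). NTNG1, the presynaptic netrin-G1, and MDGA1, which binds neuroligins, are described with the RLS loci. SLITRK3, which organises inhibitory synapses, was lowered (-0.76 ± 0.22, adjusted P = 0.0477), and its call was lost in 10 of 22 refits.

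Of 23 tested genes at loci associated with RLS, 4 were raised and 1 was lowered, and the list holds MEIS1 itself. NTNG1 rose from 0.313, 0.537 and 0.655 CPM to 1.74, 1.92 and 2.3 CPM (1.95 ± 0.17, adjusted P = 7e-07). MDGA1 rose from 1.74, 2.06 and 2.71 CPM to 3.98, 5.22 and 5.99 CPM (1.29 ± 0.12, adjusted P = 2.23e-06). Neither gene had overlapping groups. DACH1, a transcriptional regulator of eye and forebrain, ranged from 5.95 to 9.66 CPM in MEIS1-OE and from 3.23 to 6.14 CPM in ctrl-OE, and the ranges overlapped (0.64 ± 0.17, adjusted P = 0.0329). Its call was lost when library 1, 3, 4 or 5 of MEIS1-OE or library 2, 3 or 5 of ctrl-OE was left out, with log2(fold changes) not below 0.538 and adjusted P up to 0.0911. DIRC3, a long non-coding RNA gene, was lowered (-1.02 ± 0.23, adjusted P = 0.0104).

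Of 23 tested dopamine and striatal signalling genes, 2 were raised, namely PPP1R1B and DBH, and none was lowered. DBH, the enzyme that turns dopamine into noradrenaline, rose from 0.561 to 1.02 CPM to 2.16 to 2.77 CPM (1.75 ± 0.16, adjusted P = 1.3e-06). KIF5A was the only raised gene among 46 tested kinesin genes and light chains, while 7 others had lower levels at an adjusted P under 0.05 without passing the fold limit.

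Ion channels and receptors showed single raised members, mostly at low levels. Of 73 tested potassium channel genes, 4 were raised, all but KCNJ1 from the KCNH family (KCNH2, KCNH3 and KCNH6). KCNH3 rose from 0.232 to 0.581 CPM to 1.36 to 2.68 CPM (2.19 ± 0.23, adjusted P = 6e-06). Among 34 tested sodium and calcium channel genes, 3 were raised. SCN9A, the sodium channel of pain fibres, rose from 2.14, 2.69 and 2.95 CPM to 6.05, 7.27 and 9.46 CPM (1.5 ± 0.12, adjusted P = 2.21e-07). CACNB1 and SCN7A rose by 0.95 ± 0.1 (adjusted P = 8.52e-06) and 0.94 ± 0.18 (adjusted P = 0.00313).

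Of 48 tested ligand-gated receptor genes, 4 were raised. CHRND, the delta subunit of the muscle acetylcholine receptor, rose by 2.75 ± 0.21 (adjusted P = 1.11e-07). CHRNA3 rose by 0.75 ± 0.18 (adjusted P = 0.0149), and GRIK5 by 0.59 ± 0.11 (adjusted P = 0.0019), close to the fold limit, so that its call was lost in 10 of 22 refits. In the list of calcium pumps and exchangers, the exchanger gene SLC8A2 rose (1.05 ± 0.12, adjusted P = 1.33e-05) while ATP2A1 fell.

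Matrix genes were raised in several families. Of 41 tested metalloproteinase, ADAMTS and TIMP genes, 6 were raised and none lowered. Besides MMP19, these were ADAMTSL4 (0.78 ± 0.09, adjusted P = 2.48e-05), TIMP4 (1.14 ± 0.16, adjusted P = 0.000163), MMP9 (1.39 ± 0.32, adjusted P = 0.013), ADAMTSL2 and MMP8, the last 2 of them with means under 1 CPM. Of 37 tested collagen genes, 4 were raised. COL4A1, a chain of basement membrane collagen, was the most abundant, at 287, 302 and 376 CPM in ctrl-OE and 493, 562 and 616 CPM in MEIS1-OE (0.84 ± 0.06, adjusted P = 6.8e-08). COL8A1 rose by 1.21 ± 0.17 (adjusted P = 0.000121), whereas COL14A1 and COL16A1 lost their calls in 2 and 6 refits. The integrin genes ITGB4 and ITGA11 were the raised members of 35 laminin and integrin chains, with log2(fold changes) of 1.36 and 1.47. Of 86 cadherins and protocadherins in that list, which does not hold FAT2, only CDH3 was called, and it was lowered (-0.75 ± 0.12, adjusted P = 0.000831).

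Several ligands and receptors of signalling pathways changed. Of 22 tested genes of the ERBB, KIT and PDGF families, 5 were raised and 1 was lowered. PDGFA, a ligand of the PDGF receptors, rose from 0.805, 0.857 and 1.07 CPM to 4.26, 5.3 and 6.12 CPM (2.53 ± 0.12, adjusted P = 5.09e-10). The receptor genes ERBB3 and KIT rose by 0.85 ± 0.09 (adjusted P = 8.52e-06) and 0.71 ± 0.08 (adjusted P = 1.56e-05), and the ERBB ligands NRG1 and NRG4 by 1.08 ± 0.18 and 2.24 ± 0.62, the call of NRG4 being lost in 8 refits. The receptor ERBB4 was lowered (-0.68 ± 0.16, adjusted P = 0.0172), and without library 1 of ctrl-OE its adjusted P was 0.0591.

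Of 51 tested WNT pathway genes, 3 were raised. RSPO1, which potentiates WNT signals, rose from at most 0.14 CPM to between 1.21 and 2.14 CPM (3.95 ± 0.3, adjusted P = 1.04e-07), and WNT10B and DKK2 by 0.82 and 0.63. In the Notch list, HES6 and HES7 were raised (0.7 ± 0.17 and 0.88 ± 0.14) and HES5 was lowered among 29 tested genes. HES5 is a Notch target of neural progenitors, yet its level was at most 0.101 CPM in MEIS1-OE and 0.0465 to 1.64 CPM in ctrl-OE, and its call was lost in 8 refits. Of 60 BMP and TGF-beta genes, the receptor gene ACVRL1 and the antagonist gene GREM1 were raised, and the ligand gene BMP8A was lowered.

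A pair of raised members was found in each of several further lists: RARG and CYP26A1 among 15 retinoid genes, VGLL3 and ANKRD1 among 21 Hippo pathway genes, and NDRG1 and EGLN3 among 24 hypoxia and glycolysis genes. Among 21 wound healing genes CD9 was raised and F13A1 was lowered. CYP26A1, which degrades retinoic acid, rose from 0.0808 to 0.609 CPM to 0.694 to 1.71 CPM (1.93 ± 0.33, adjusted P = 0.00107). Of 19 NF-kB and inflammatory genes, ICAM1, IL11 and TNFAIP3 were raised. ICAM1, an adhesion receptor for leukocytes, went from 42.4, 47.5 and 51.1 CPM to 98.1, 115 and 120 CPM (1.24 ± 0.06, adjusted P = 5.09e-10). Of 13 S100 genes, S100A3, S100A4 and S100A10 were raised, by 2.63, 1.04 and 2.01, all from below 2 CPM. Single members were called in the lists of axon guidance and FGF-ERK feedback genes (EPHA4, 0.71 ± 0.12), heat shock genes (HSPB8), metallothioneins (MT1X) and SOX factors (SOX18, lowered).

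Some markers of other cell types were called, in lists of few genes. The share raised was 7.69% of neuronal, 6.25% of glial and 10% of neural crest markers. It was 16.7% of microglia and blood cell, 16.7% of epithelial and 14.3% of muscle and heart markers, against 2.17% of all tested genes. Lowered were 3.85% of neuronal and 7.14% of muscle and heart markers, against 0.495%. No endothelial, mesenchymal or pluripotency marker was called. Summed levels did not overlap between the groups for the neural crest list and for the muscle list, where ATP2A1 alone made up the fall. Of 25 neural stem cell markers tested, HES5 alone was called, and the summed level of the list was 5340.3 to 6419 CPM in MEIS1-OE and 5020 to 6217.4 CPM in ctrl-OE. The summed levels of 26 neuronal markers were 1000.5 to 1163.8 CPM and 934.2 to 1132 CPM. Of these, NEFM, a neurofilament subunit, and STMN4 were raised (0.64 ± 0.09 and 1.47 ± 0.28), and SCG2 was lowered (-0.6 ± 0.12). Microglia and blood cell markers summed to 11.8 to 17.2 CPM in MEIS1-OE and 9.4 to 12.8 CPM in ctrl-OE, with CD34 and TYROBP raised among 12 tested. Neural crest markers summed to 121.9 to 130.2 CPM against 96.3 to 119.5 CPM, with ERBB3 raised among 10. Muscle and heart markers summed to 11.5 to 15.5 CPM in MEIS1-OE and to 16.7 to 19.8 CPM in ctrl-OE. The median sum was 14.9 CPM in MEIS1-OE and 17.6 CPM in ctrl-OE. ATP2A1 alone differed by more, at 2.03 to 2.84 CPM in MEIS1-OE and 6.84 to 8.56 CPM in ctrl-OE. In that list of 14 tested genes ATP2A1 was lowered, while MYL4 and TNNI1 were called as raised (0.76 and 0.92), calls that were lost in 9 of 22 and 13 of 21 refits. AGT (glial list) and MPZL2 (epithelial list) were raised. The part of such cells in the results was not tested.

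In 14 lists no gene was called by edgeR or by DESeq2. They hold 321 tested genes, of which 101 had an unadjusted P under 0.05, against 3491 of all 18401 tested genes. An adjusted P under 0.05, with a change below the fold limit, was found for 23 of the 321. Over all tested genes 6.86% had such an adjusted P, with a change of any size. The lists without a call include those of the basic cell programme. All 22 tested G2/M genes had log2(fold changes) below 0, from -0.43 to -0.07, with 6 at an adjusted P under 0.05. The lowered gene CDC25C is not in that list. The median was -0.094 over 24 G1/S and replication genes, -0.149 over 25 sterol and fatty acid synthesis genes and 0.084 over 78 cytosolic ribosomal protein genes, against -0.007 over all genes. Of 39 HOX genes, which encode partners of MEIS1 on DNA, only 5 had enough counts to be tested, and none was called. Among them HOXB2, HOXB3 and HOXC6 did not exceed 1.01 CPM in any library, so the missing calls say little of HOX genes. The other lists without a call were FOX factors, endothelial, mesenchymal and pluripotency markers, and hedgehog, p53, interferon, immediate early and unfolded protein genes.

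**Figure D4:**
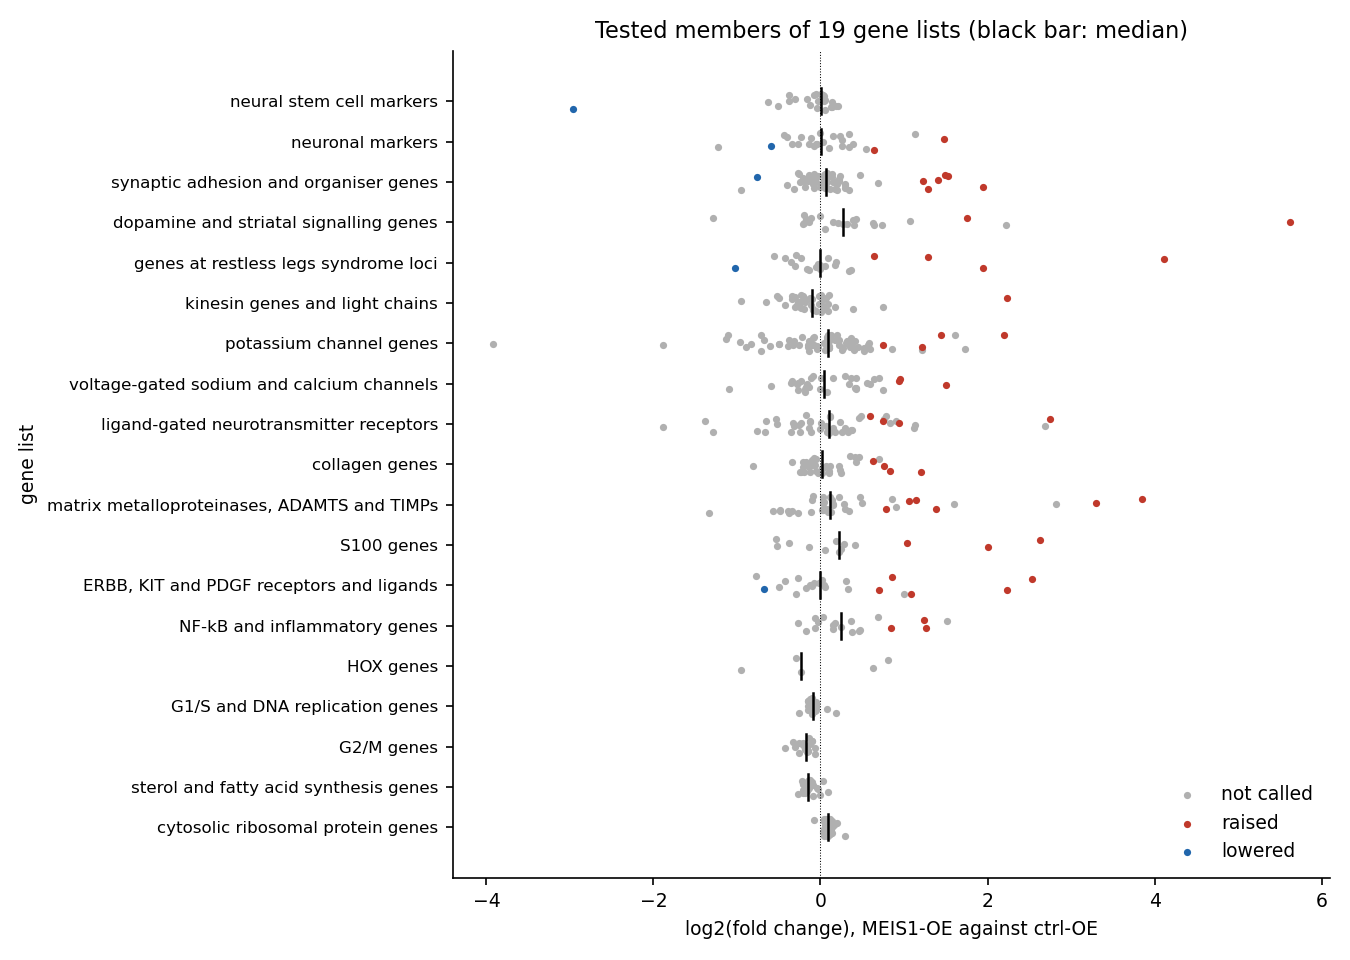
Each point is 1 tested member of a list, placed by its log2(fold change) of MEIS1-OE against ctrl-OE, with raised genes in red, lowered genes in blue and the list's median as a black bar. Medians of the lists shown run from -0.238 (HOX genes, only 5 of 39 tested) to 0.265 (dopamine and striatal signalling genes). Called genes lie beyond 0.58 in either direction because the fold limit requires it. PPP1R1B is at 5.62 to the right and the called gene HES5 at -2.97 to the left. A potassium channel gene that was not called lies farther left, at -3.93.

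Some raised genes lay close together in the genome. A position was found for 370 of the raised genes, and 59 of them (15.9%) started within 50000 bases of the start of another raised gene. The same was true of 603 of 15685 other tested genes (3.84%), which is given as a description, since neighbours can overlap or share reads. The longest run, IL2RB, C1QTNF6, SSTR3, RAC2 and CYTH4 on chromosome 22, was chosen after its values were seen. In it, IL2RB, a chain of the interleukin-2 receptor, rose from a mean of 17.8 CPM to 51.4 CPM (1.53 ± 0.09, adjusted P = 2.63e-09), and SSTR3, a somatostatin receptor, from 0.531 to 4.14 CPM (2.95 ± 0.19, adjusted P = 1.61e-08). Other groups, also chosen in that way, were the kallikrein genes KLK6, KLK7 and KLK8, the set of CACNB1, STAC2 and PLXDC1 on chromosome 17, and S100A3 with S100A4. PPT2, PPT2-EGFL8 and EGFL8 were raised together as well, but these gene models overlap, and so their reads cannot be told apart with certainty.

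To ask which of these changes are particular to MEIS1, the libraries were also tested directly against MEIS2-OE. Activation of the paralog used the same system with a MEIS2 guide. In this test 371 genes (2.03% of 18320) were higher and 119 (0.65%) lower in MEIS1-OE. Of the 399 raised genes, 303 were also higher in MEIS1-OE than in MEIS2-OE, 95 passed neither way and 1 (B3GALT2, named after its value was seen) was lower. Of 90 lowered genes tested, 42 were also lower than in MEIS2-OE and 48 passed neither way. Both tests use the same MEIS1-OE libraries, so the counts are not independent of the first comparison.

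The raised genes of smallest P differed between the paralogs. FAT2, TTC9B, STK32B, SYTL5 and PPP1R1B had means of 0.0559 to 0.155 CPM in MEIS2-OE. KIF5A was at 20.2 ± 1.12 CPM (SD, n = 6) in MEIS2-OE, and the direct log2(fold change) was 2.13 (adjusted P = 4.48e-14). For MMP19 and ATP2A1 the direct values were 3.74 (adjusted P = 1.58e-14) and -1.48 (adjusted P = 5.09e-07). Other genes did not pass against MEIS2-OE. LPPR4 was at a mean of 1.21 CPM in MEIS2-OE, and its direct log2(fold change) was -0.16 (adjusted P = 0.75). KIT, TNFAIP3, EPHA4, CYP26A1, ANKRD1, GREM1 and DKK2 had direct values between -0.36 and 0.21, with adjusted P of 0.326 or more. CDKN2C had a mean of 30 CPM in MEIS2-OE, so the direct difference was -3.46 (adjusted P = 1.39e-13), larger than its change against ctrl-OE.

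Loss of MEIS1 was compared through MEIS1-KO against ctrl-KO, which shares no library with the activation groups. In that test 31 genes (0.175% of 17713) were raised and 14 (0.079%) lowered. MEIS1 itself was lowered, with a log2(fold change) of -1.52 ± 0.1 (adjusted P = 1.84e-06). Of the 399 genes raised by activation, 348 were tested in the knockout. Among these, 3 were lowered by the knockout (0.862%), namely MEIS1, CYP26A1 and HAS2, and 6 were raised in both (1.72%), among them ANKRD1, DKK2, GREM1, MMP19 and RAPGEF3. HAS2 and RAPGEF3 were chosen after their values were seen. None of the 82 lowered genes tested was called in the knockout by edgeR, 12 had an unadjusted P under 0.05 and DESeq2 called 1. The count of genes raised by the knockout was 52 without library 2 of MEIS1-KO, 15 without library 3 of MEIS1-KO and 19 without library 3 of ctrl-KO.

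CYP26A1 moved in opposite directions, with a log2(fold change) of 1.93 in the activation and -1.23 ± 0.23 in the knockout (adjusted P = 0.0132). HAS2, a hyaluronan synthase, had 1.04 and -1.27, its adjusted P in the activation being 0.0487. MMP19 moved the same way in both, with 0.81 ± 0.16 in the knockout (adjusted P = 0.0202). Of the 15 raised genes of smallest P, FAT2 and TTC9B were not tested in the knockout. For the 11 others besides MEIS1 and MMP19, the knockout gave adjusted P between 0.118 and 0.957, as for KIF5A (-0.12, adjusted P = 0.636) and PIANP (-0.05, adjusted P = 0.927). The median log2(fold change) in the knockout was 0.09 over the raised genes and -0.04 over the lowered genes.

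**Figure D5:**
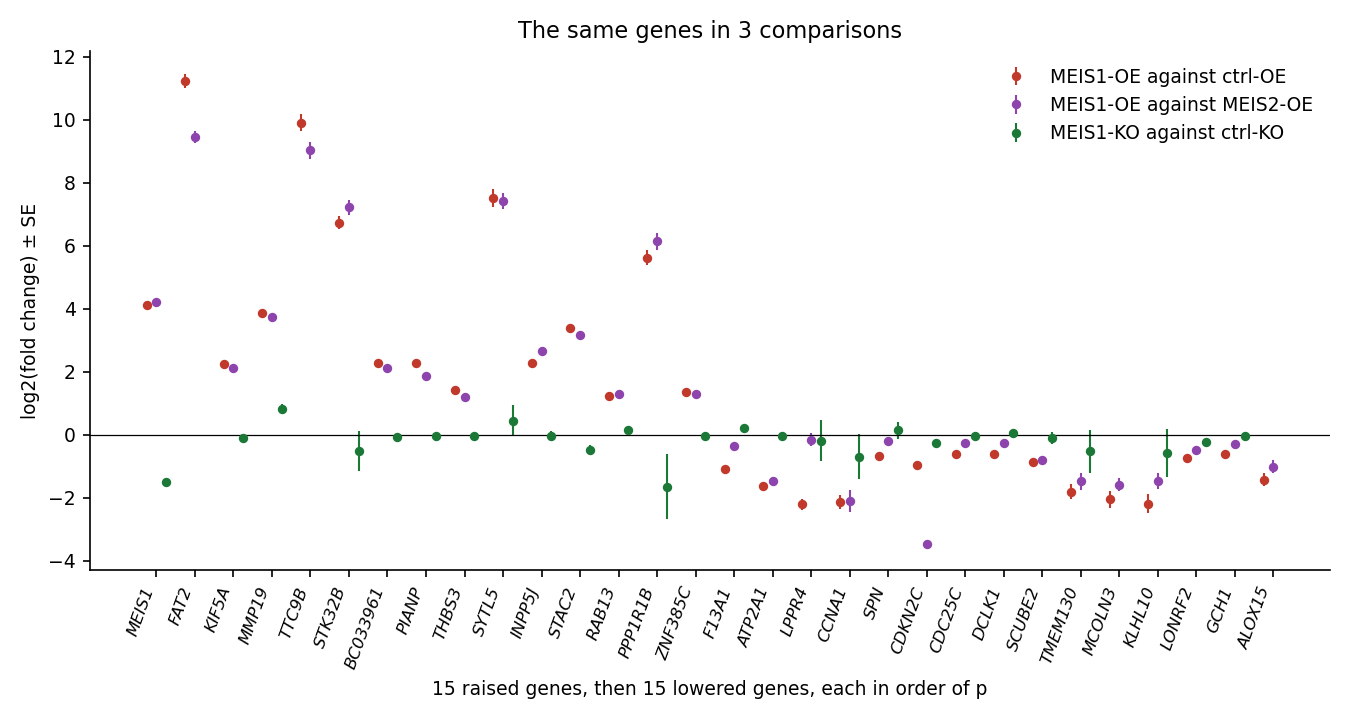
The log2(fold change) ± SE of the 15 raised and 15 lowered genes of smallest P in MEIS1-OE against ctrl-OE (red), MEIS1-OE against MEIS2-OE (purple) and MEIS1-KO against ctrl-KO (green, where tested); the red and purple values share the MEIS1-OE libraries. Green points lie near 0 except for MEIS1 at -1.52, MMP19 at 0.81 and genes with wide errors, and CDKN2C is the gene whose purple value of -3.46 lies far below its red value.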

How the data were processed

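Stranded poly-A libraries of hNSC were read as paired ends of 100 bases. STAR alignment by the authors was to hg19 (GRCh37), followed by counting with HTSeq. The submitters' processing notes give STAR 2.7.0a and Trimmomatic 0.39, and the study's methods name another STAR version. The gene annotation and the strand setting of the counting are not given in the sources used here. The values deposited by the authors are raw counts per gene symbol, without normalization.

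Genes with at least 10 counts over the 12 libraries were tested with edgeR 4.0.16 (R 4.3.3), using TMM size factors, a prior count of 0.125 and the quasi-likelihood F test, two-sided, with Benjamini-Hochberg adjustment over all tested genes. Each SE was obtained as the size of the log2(fold change) over the root of its F statistic. The comparisons with MEIS2-OE and of MEIS1-KO with ctrl-KO were fitted in the same way on their own 12 libraries. CPM used TMM factors over all 36 libraries. The dispersion of MEIS1-OE and ctrl-OE gave a biological coefficient of variation of 0.1. The tools were tested on simulated data of this comparison (18210 genes). Changes of 1 on the log2 scale in either direction were set in 200 genes with a mean of 20 or more counts. Of these, edgeR recovered 199 with 3 false calls, and DESeq2 1.42.0 recovered 197 with 2 false calls. The simulation gave every gene the same dispersion and no library a GC shift. It therefore does not measure recovery of genes with fewer counts or false calls in the real libraries. No pair of libraries within MEIS1-OE or ctrl-OE agreed within sampling noise (chi-square per degree of freedom 3.5 to 30.9).

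Positions, GC content and windows came from GRCh37 with GENCODE v44 lifted to it. Older symbols were matched through a RefSeq table of another build, used for names only, and GC content was found for 15754 tested genes (85.6%).

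The genes named are MEIS1 and MEIS2, the 15 raised and 15 lowered genes with the smallest P, the 10 of each direction with the largest change among those with a mean of 1 CPM or more, called members of the 53 lists, the first 3 tested members of each list and tested genes within 1 Mb of MEIS1. NES and other genes outside this rule were chosen after values were seen. The members and lists were chosen with earlier results of these data known. Alternatives were RLE size factors, filterByExpr, no filter on low counts, DESeq2, 1 fit of all libraries, the replicate number as a block, a prior count of 2, adjusted P alone and each library left out. A loess offset on GC content per library and the removal of both libraries that stood apart were added after the data were seen. Some genes that the rule names are not reported here.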

Additional observations from a re-analysis of the deposited data

Results flagged for a closer look

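For 121 genes, the 6 libraries of MEIS1-OE and the 6 of ctrl-OE were each searched for a library far from its group by Dixon's 95% criterion on the gap over the range. Of these 242 sets of values, 18 held such a library. Chance flags about 1 in 20 groups. Library 3 of MEIS1-OE was the outlying one for 6 genes. It was low for STAC2 (13.1 CPM, others 20.3 to 23.1), ADAMTSL4 (21.9 CPM, others 30.7 to 31.9), GRIK5 (22.5 CPM, others 32.2 to 37.2) and HES6 (20.2 CPM, others 33.9 to 39.4), and high for MEIS2 (26.1 CPM, others 20.8 to 22.2) and ERBB4 (7.15 CPM, others 3.97 to 5.09).

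Library 6 of ctrl-OE was high for SOX2 (166 CPM, others 90.7 to 115), COMP (2.86 CPM, others 1.04 to 1.53) and MT1X (1.45 CPM, others 0.889 to 1.09), and it gave 0 CPM for RSPO1 (others 0.0894 to 0.14). Library 3 of ctrl-OE was low for MEIS1 (15.7 CPM, others 18 to 18.8). Library 4 of ctrl-OE was high for CRHR2 (0.134 CPM, others up to 0.0468) and low for HES7 (0.85 CPM, others 1.17 to 1.29), and library 5 of ctrl-OE was high for LPPR4 (6.97 CPM, others 4.41 to 5.14). Library 4 of MEIS1-OE was high for STK32B (12.5 CPM, others 8.18 to 8.96) and CCNA1 (0.363 CPM, others 0.151 to 0.225). Library 6 of MEIS1-OE was low for TIMP4 (1.8 CPM, others 2.33 to 2.63) and high for ANKRD1 (78.8 CPM, others 37.7 to 52.6).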

How the results depend on the processing

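The numbers of genes raised and lowered in MEIS1-OE, 399 and 91, stayed within a factor of 1.5 under RLE size factors, filterByExpr, no filter, DESeq2, 1 fit of all libraries, a prior count of 2 and each library left out (342 to 471 raised and 69 to 132 lowered, the highest counts without library 3 of MEIS1-OE). By adjusted P alone they were 844 and 419. Of the alternatives added after the data were seen, leaving out both libraries that stood apart gave 591 and 173, and the GC offset gave 384 and 137, against 369 and 94 for the same genes without it; the cause was not tested. Against MEIS2-OE, adjusted P alone gave 792 higher and 391 lower genes, and leaving out a library gave 331 to 478 and 102 to 153. In MEIS1-KO, adjusted P alone gave 145 raised and 67 lowered genes, DESeq2 50 raised, 1 fit of all libraries 48 raised, and leaving out a library 15 to 52 raised (52 without library 2 and 15 without library 3 of MEIS1-KO, 19 without library 3 of ctrl-KO) and 10 to 19 lowered. MEIS1 mRNA kept a log2(fold change) of 4.08 to 4.14, and MEIS2 mRNA one of -0.08 to -0.003 (adjusted P in edgeR or DESeq2 from 0.392 to 0.977).

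Of 113 called genes that were named, 95 were called in every one of up to 22 refits that tested them and 18 lost the call in at least 1; none changed sign. The 18 are DCLK1, ERBB4, COL14A1, ADAMTSL2, SOX18, HES6, KCNH6, SCG2, COL16A1, MT1X, DACH1, DKK2, HES5, NRG4, MYL4, SLITRK3, GRIK5 and TNNI1, the last in 13 refits. Deviations of same-numbered libraries went together in 4 of 6 pairs (correlation above 0.1, range -0.0761 to 0.358). The mean correlation was 0.165 for same numbers and -0.0438 for different numbers, and 1 of 6 libraries correlated best with its own number. The labels name no batch, and the main fit did not pair the libraries. Whether the numbers mark a shared batch was not tested. With the replicate block, 389 genes were raised and 81 lowered, with 379 higher and 120 lower than MEIS2-OE and 28 raised and 16 lowered in MEIS1-KO. Among the genes named, the block ended the calls of SOX18, TNNI1, MYL4, SLITRK3, GRIK5 and NRG4. Genes below about 0.1 CPM rest on a few counts per library, where only large changes could be detected.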
